A study of Mus musculus with 8 samples.

Results

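The DNA replication genes form a list of 38 genes for origin licensing, the replication fork, nucleotide supply and the control of S phase entry, chosen by name among the 37620 gene IDs of the count files. All 38 matched an Ensembl ID, and all 38 were among the 15355 genes that passed the filter on low counts. None of the 38 was at 0 counts in any library. Ribosomal-depleted total RNA was sequenced from erythroid progenitors, the precursors of red cells, of C57BL/6 mouse fetal livers at E14.5, which were sorted with magnetic beads and cultured for 24 h with erythropoietin. The 6 groups were 2 Bloodlinc hairpin libraries (hairpins 1 and 2, which target the long noncoding RNA Bloodlinc) with 1 control hairpin library of their own, 1 Bloodlinc vector library with 1 empty vector library, and 2 hnRNPU hairpin libraries (hairpins 1 and 2, against the nuclear RNA-binding protein hnRNP U) with 1 control hairpin library of their own. The repeated samples of a target are different hairpins, and nothing in the labels says whether any libraries came from separate cultures or embryos. A p-value here thus reflects the spread between hairpin libraries of the same target, which may be technical. The control and vector groups are 1 library each, so the spread among control libraries enters no p-value.

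Replication starts where the origin recognition complex, Cdc6 and Cdt1 load the ring-shaped MCM helicase onto DNA, a step called licensing. Cdc45 and the GINS complex turn the loaded ring into an active helicase, primase and the DNA polymerases copy the strands, and PCNA, a sliding clamp placed by the RFC clamp loader, holds the polymerases on the template. Ribonucleotide reductase and thymidylate synthase supply the nucleotides. E2F transcription factors and cyclin E control entry into S phase, and many licensing genes are known E2F targets. Erythroid progenitors divide quickly under erythropoietin while they mature, so that cell division and maturation run side by side.

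Promoter sequences of 29 of the 38 genes were available from RefSeq (GRCm38.p6) in 34 windows that run from 250 bases before to 50 bases after a start site. The windows were searched on both strands for the E2F letters TTTCCCGC, TTTCGCGC, TTTGCCGC and TTTGGCGC, where a site that reads the same way from both strands can hold overlapping matches. An E2F match stood in 13 of the 34 windows (38.2%), against 2.26% of all 32851 windows of the same length. The 5 letters CCAAT were in 58.8% of the replication gene windows and in 37.4% of all windows. The letters TTTGAA of the cell cycle homology region were in 14.7% of the replication gene windows and in 17.9% of all windows, and the GATA letters AGATAA or TGATAA in 5.88% of the replication gene windows and in 18.6% of all windows. The windows of the replication genes had a median GC content of 58.8%, against 52.7% in all windows, and the part of base composition in these shares was not tested. The 250 bases before the start site follow for Mcm6 and Orc1, the genes with the lowest log2 fold change in the Bloodlinc and the hnRNPU knockdown, for Mcm5, another helicase gene, and for Rrm2, the most abundant of the 38 per kb over the 3 controls. Capitals mark the E2F matches.
Mcm6: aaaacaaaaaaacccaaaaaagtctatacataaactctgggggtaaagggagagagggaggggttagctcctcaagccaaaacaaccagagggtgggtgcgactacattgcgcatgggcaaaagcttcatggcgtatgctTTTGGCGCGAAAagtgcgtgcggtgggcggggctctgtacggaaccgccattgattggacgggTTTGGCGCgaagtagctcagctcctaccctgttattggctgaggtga
Mcm5: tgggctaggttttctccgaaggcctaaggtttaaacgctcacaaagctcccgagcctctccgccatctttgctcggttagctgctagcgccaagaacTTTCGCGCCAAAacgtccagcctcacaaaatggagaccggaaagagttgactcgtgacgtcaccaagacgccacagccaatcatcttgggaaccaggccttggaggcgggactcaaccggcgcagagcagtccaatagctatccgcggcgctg
Orc1: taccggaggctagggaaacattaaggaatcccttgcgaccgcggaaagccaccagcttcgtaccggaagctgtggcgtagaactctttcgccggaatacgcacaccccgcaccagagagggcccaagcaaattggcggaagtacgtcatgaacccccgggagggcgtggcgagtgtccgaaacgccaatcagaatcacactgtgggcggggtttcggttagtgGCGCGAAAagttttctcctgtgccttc
Rrm2: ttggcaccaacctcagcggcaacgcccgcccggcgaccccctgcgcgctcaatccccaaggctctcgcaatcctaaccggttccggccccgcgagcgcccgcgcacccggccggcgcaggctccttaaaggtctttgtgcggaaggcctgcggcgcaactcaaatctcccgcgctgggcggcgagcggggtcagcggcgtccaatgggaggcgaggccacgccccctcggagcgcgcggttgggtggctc
The Mcm6 stretch (chr1:128359706-128359955, minus strand) held 3 matches, at 110, 106 and 47 bases before the start, of which the 110 and 106 ones overlap. The Mcm5 stretch (chr8:75109259-75109508, plus strand) held 2 overlapping matches at 153 and 149 bases before the start. The Orc1 stretch (chr4:108579204-108579453, plus strand) had 1 match at 27 bases before the start, and the Rrm2 stretch (chr12:24708004-24708253, plus strand) had none. These are matches of letters and not measured sites. Genes with no E2F letters in their windows included Rrm2, Pcna, E2f1 and Ccne1, which says nothing of sites elsewhere or of other letters.

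Counts in genes came to between 23682993 and 34540691 in 6 of the libraries and to 2931627 and 2612916 with hnRNPU hairpins 1 and 2. Of their uniquely placed counts, 89.7% and 86.6% fell in no gene, compared with 21.7% to 30.1% for the rest of the libraries. A pair of IDs with no GENCODE entry, picked after their counts were seen, held 32.6% and 22.6% of the gene counts with hnRNPU hairpins 1 and 2, against 0.0166% with their control hairpin and at most 0.122% in the other libraries. The replication genes held 9 to 762 counts each with hnRNPU hairpin 1 (median 65.5) and 28 to 1339 counts with hnRNPU hairpin 2 (median 147), against medians of 2482.5 and 2532 with Bloodlinc hairpins 1 and 2. Levels below are CPM, counts scaled to a common total of gene counts per library with edgeR's TMM factors, and a level per kb is divided by the exon length in kb of the transcript with the longest coding sequence. Bloodlinc RNA stood at 2.19 and 1.75 CPM with its hairpins, against 4.46 CPM with its control hairpin (log2 fold change −1.18, SE 0.81, edgeR's quasi-likelihood test, adjusted p = 1). It stood at 5.46 CPM with the Bloodlinc vector, against 1.26 CPM with the empty vector. The hnRNPU control hairpin library held 4.35 CPM of Bloodlinc RNA, and both Bloodlinc hairpin libraries lay above the empty vector library. Hnrnpu stood at 325 and 373 CPM with its hairpins, against 588 CPM with its control hairpin (log2 fold change −0.75, SE 0.58, adjusted p = 0.73), but the Bloodlinc control hairpin library held 290 CPM of Hnrnpu. Exons of 12 of the 38 genes, among them Mcm7, Orc1, Rfc4, Rfc5 and Ccne2, overlap an exon on the opposite strand in GENCODE, and the strand setting of the counting is not given, so reads of such pairs cannot be told apart. Mcm7 also overlaps Mir25 and Mir93 on its own strand. The 11 erythroid defining markers had counts above 0 in every library and summed to between 23598 and 106304 CPM.

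In the 3 control libraries the most abundant replication genes were those for nucleotide supply and the sliding clamp. Rrm2, the small subunit of ribonucleotide reductase, averaged 458 CPM per kb over the 3 controls, Pcna 409 and Rrm1, the large subunit, 232. Mcm6, Mcm7 and Fen1, the flap nuclease of Okazaki fragments, came next at 149, 131 and 117 CPM per kb. The lowest were Gins2 at 5.51, E2f1 at 8.71 and Gins3 at 9.26 CPM per kb, so the 4 GINS subunit genes spread widely, with Gins1 at 32.3 and Gins4 at 51.3. Between these lay Cdc6 at 60.7, Cdt1 at 25.7, the polymerase genes Pola1, Pola2, Pold1 and Pole at 40.9, 36.5, 16.03 and 14.2, and the clamp loader genes Rfc1, Rfc2 and Rfc3 at 21.8, 15.9 and 24.3 CPM per kb. Thymidylate synthase (Tyms), the DNA ligase of the lagging strand (Lig1), Mcm10, which takes part in origin firing, and Cdc45 averaged 33.1, 42.0, 19.6 and 41.6 CPM per kb.

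The 3 control libraries did not stand at the same level for these genes. Summed over the 38 genes, the level was 10716 CPM with the Bloodlinc control hairpin, 8156 CPM with the hnRNPU control hairpin and 4327 CPM with the empty vector. The empty vector library was the lowest of the 3 for 34 of the 38 genes, against 33.7% of all genes tested, and the exceptions were Mcm4, Rfc1, Rfc3 and Lig1. The order Bloodlinc control, hnRNPU control, empty vector held for 24 of the 38, against 24.5% of all genes. The highest control stood 5.25 times above the lowest for Rrm2, 3.99 times for Pcna and 3.86 times for E2f2, but 1.11 times for Rfc1, the large subunit of the clamp loader. Mcm4 stood lowest with the Bloodlinc control hairpin, at 42.6 CPM per kb, against 85.2 with the hnRNPU control hairpin and 56.5 with the empty vector. Each control group is 1 library, so this spread has no replicate error. The summed erythroid markers also differed, with 84042, 64438 and 23598 CPM in the Bloodlinc control, hnRNPU control and empty vector libraries. In the same order, the 6 early progenitor markers summed to 61.9, 196 and 407 CPM. The 9 granulocyte markers summed to 97.4, 1466 and 828 CPM, and the 9 macrophage markers to 50.4, 237 and 63.1 CPM. The part of these markers' cells in the differences was not tested. In bulk RNA, fewer cells of a type and less RNA per cell cannot be told apart.

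**Figure D1:**
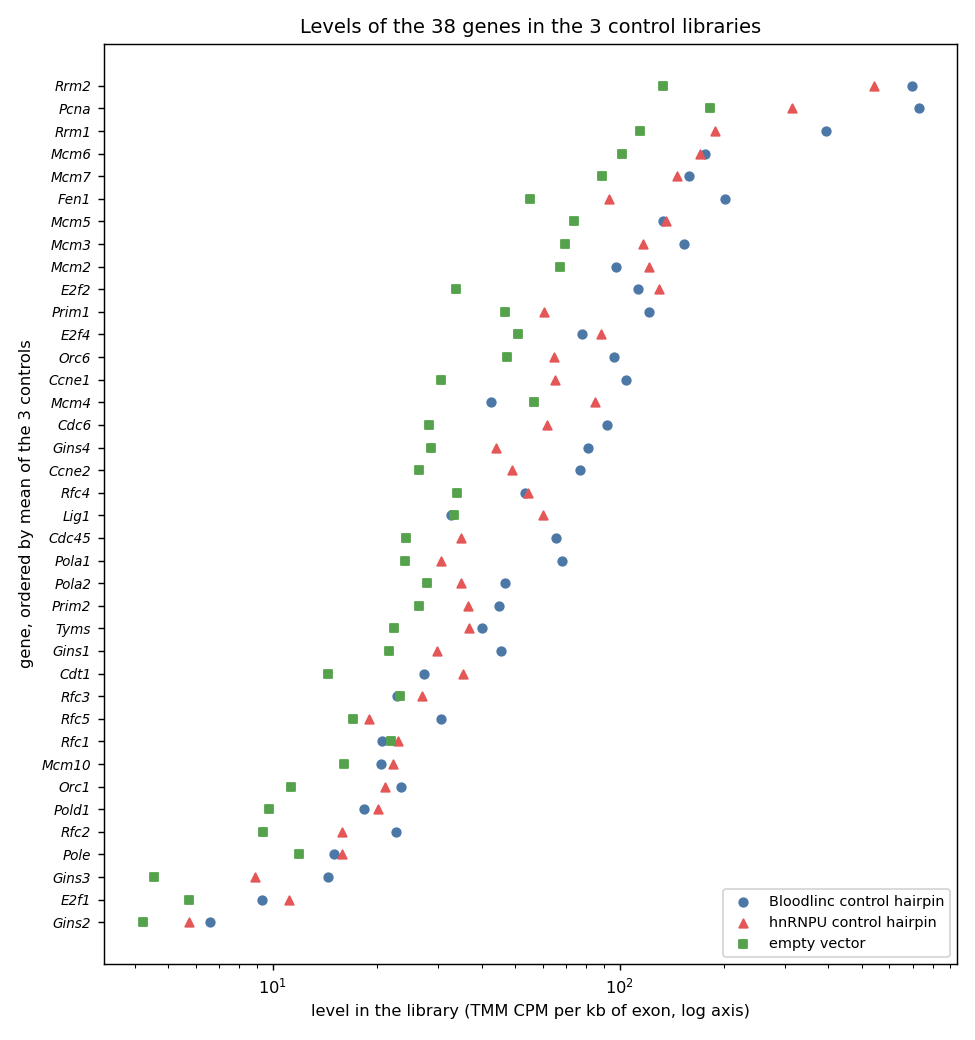
Level of each of the 38 genes (CPM per kb of exon, log axis) in the Bloodlinc control hairpin, hnRNPU control hairpin and empty vector libraries, with genes ordered by the mean of the 3. The empty vector point lies leftmost for 34 of 38 genes, and the 3 points nearly coincide for Rfc1.

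In the Bloodlinc knockdown none of the 38 genes passed the test, and the 2 hairpins differed in how far they stood from the control. Against the control hairpin, 37 of the 38 log2 fold changes were below 0, with a median of −0.41, while 44.6% of all genes tested were below 0 with a median of 0.06. edgeR's quasi-likelihood test called 19 genes (0.124% of 15355; 15 higher and 4 lower) and 0 of the 38, and DESeq2 called 0 of the 38. At an unadjusted p under 0.05, 3 of the 38 were lower (7.89%) and 0 higher with edgeR, against 1.26% of all genes lower and 2.73% higher, and DESeq2 also had 3 lower. Both hairpins stood below their control for 27 of the 38, against 30.7% of all genes, but below all 3 control libraries only for Mcm6, Rfc3 and Lig1 (7.89%), against 11.3% of all genes.

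Hairpin 1 left most replication genes near the control, and hairpin 2 was lower throughout. The median log2 difference from the control was −0.07 with hairpin 1 and −0.82 with hairpin 2, and hairpin 2 stood below hairpin 1 for 36 of 38 genes, against 46.8% of all genes. In counting error alone, 38 genes were below the control with hairpin 2, while with hairpin 1 there were 21 below, 8 above and 9 whose 95% interval spanned the control. No such share was computed over all genes, so these counts cannot be read as particular to the 38. The 8 above were Cdc6, Cdt1, Mcm7, Gins2, Pold1, Rfc1, Rfc4 and E2f1. The summed level was 8991 and 5519 CPM with hairpins 1 and 2, against 10716 CPM with the control hairpin. Against the hnRNPU control hairpin library edgeR called 0 of the 38 and 6.79% of all genes. The median of the 38 there was −0.13 with 22 lower (median of all genes 0). With the 3 control libraries pooled the median was −0.04 with 19 of 38 lower, which was no lower than the −0.08 of all genes. Without hairpin 1 the median of the 38 was −0.79 (all genes 0.02), and without hairpin 2 it was −0.07 with 27 lower (all genes 0). With libraries scaled to their gene totals alone it was −0.07 with 25 lower, a scaling that moved the median of all genes to 0.42. The erythroid markers summed to 48304 and 41287 CPM with hairpins 1 and 2, against 84042 CPM with the control hairpin, and their part in the result was not tested.

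**Figure D2:**
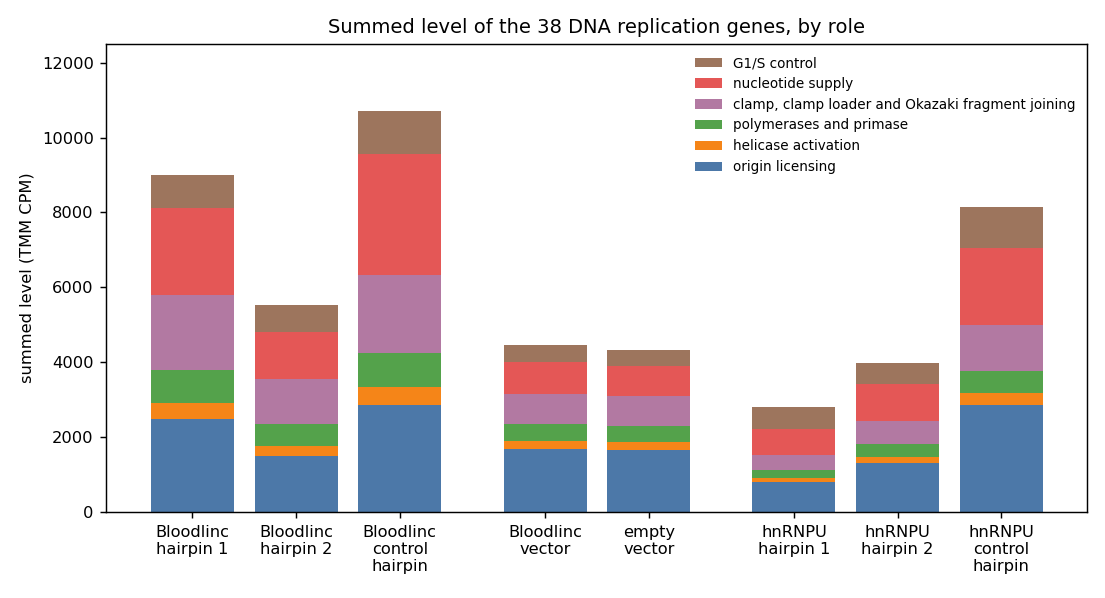
Summed level (CPM, bars from 0) of the 38 genes in each library, stacked by role. The Bloodlinc hairpins reach 8991 and 5519 CPM against 10716 in their control, the vector pair 4467 and 4327, and the hnRNPU hairpins 2808 and 3973 against 8156.

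Among the licensing genes, Mcm6 had the lowest log2 fold change in the Bloodlinc knockdown. Mcm6, a subunit of the MCM helicase (chromosome 1, 128331590 to 128359664, minus strand, GRCm38), had 169 and 239 CPM with hairpins 1 and 2, against 512 CPM with the control hairpin (log2 fold change −1.33, SE 0.56, unadjusted p = 0.0191, adjusted p = 0.962). It had 307 CPM with the Bloodlinc vector, against 295 CPM with the empty vector, and 174 and 231 CPM with the hnRNPU hairpins, against 497 CPM with their control. Both Bloodlinc hairpins were thus below all 3 controls for Mcm6. Mcm7, the licensing gene with the highest mean level per kb of exon over the 8 libraries, had 531 and 306 CPM with hairpins 1 and 2, against 470 CPM with the control hairpin. For Mcm7 the hairpins lay on either side of the control. Orc1, the largest subunit of the origin recognition complex, had 62.9 and 31.9 CPM, against 70.6 CPM with the control hairpin. Orc6, another subunit of that complex, had 87.7 and 97.0 CPM, against 124 CPM. Mcm2 and Mcm3, further subunits of the helicase, had 304 and 175 CPM against 329 CPM and 452 and 256 CPM against 465 CPM.

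The MCM2-7 helicase is built from 1 copy of each of its 6 subunits, so the share of each gene in their summed level per kb was compared across libraries. Mcm6 made up 9.16% of that sum with Bloodlinc hairpin 1 and 20.9% with hairpin 2, against 23.1% with the control hairpin. In the other 5 libraries its share was 21.99% to 26.9%, so the library of Bloodlinc hairpin 1 stood apart. In counts, Mcm6 was 8.47% of the 6 genes with hairpin 1 (95% exact binomial interval 8.21 to 8.72%, counting error only), against 21.5% with the control hairpin. Mcm7 took 28.2% and 26.2% with the Bloodlinc hairpins, against 20.8% with their control. Mcm4 took 7.003% and 5.20% with the Bloodlinc hairpins and 5.60% with their control, and 10.96% to 12.6% in the 5 libraries of the other experiments. Mcm2, Mcm3 and Mcm5 lay between 12.4% and 23.5% in all 8 libraries.

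**Figure D3:**
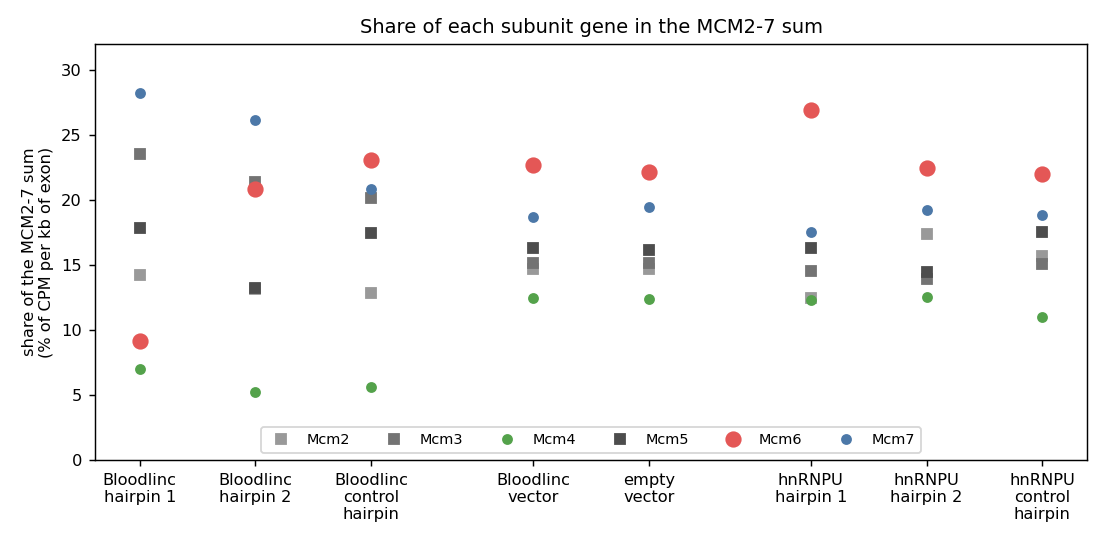
Share of each MCM2-7 subunit gene in their summed level (% of CPM per kb of exon) in each library, 1 point per gene and library. Mcm6 lies at 9.16% with Bloodlinc hairpin 1 and between 20.9% and 26.9% in the other 7 libraries, and Mcm4 lies at 5.20% to 7.003% in the 3 libraries of the Bloodlinc knockdown and at 10.96% to 12.6% in the other 5.

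Among the helicase activation genes, Gins1 and Gins3 lay farthest below the control with Bloodlinc hairpin 1. Gins1, a GINS subunit, had 29.5 and 27.1 CPM with Bloodlinc hairpins 1 and 2, against 49.4 CPM with the control hairpin (log2 fold change −0.80, SE 0.54, adjusted p = 1). Its 2 hairpin libraries lay close together and below the control. Gins4, the most abundant GINS gene, had 106 and 80.6 CPM, against 109 CPM. Gins2 had 33.4 and 12.3 CPM, against 25.7 CPM, so its hairpins lay on either side of the control. Mcm10 had 98.8 and 41.7 CPM, against 100 CPM, and Cdc45 had 133 and 82.3 CPM, against 141 CPM.

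The polymerase and primase genes had the median log2 fold change nearest to 0 of the 6 role groups, although with hairpin 1 alone the clamp group was nearer (median −0.02 against −0.05). Pola1, the catalytic subunit of the polymerase that starts each strand, had 350 and 173 CPM with Bloodlinc hairpins 1 and 2, against 364 CPM with the control hairpin (log2 fold change −0.48, SE 0.56, adjusted p = 1). Prim1, the catalytic primase subunit, had 158 and 122 CPM, against 187 CPM, and Prim2, its partner subunit, had 84.9 and 77.1 CPM, against 88.4 CPM. Pold1, the catalytic subunit of the lagging strand polymerase, had 69.6 and 57.2 CPM, against 63.2 CPM, and was the member whose log2 fold change was above 0. Over the 6 genes the median log2 fold change was −0.22, and only Pola1 was more than 1 log2 unit below the control in a hairpin library, with hairpin 2.

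Pcna had 1111 and 582 CPM with Bloodlinc hairpins 1 and 2, against 1106 CPM with the control hairpin, so hairpin 1 stood at the level of the control. Rfc5, a small clamp loader subunit, had 74.2 and 42.0 CPM, against 85.2 CPM (log2 fold change −0.55, SE 0.52, adjusted p = 1), and Rfc4 had 86.5 and 40.2 CPM, against 68.2 CPM. Fen1 had 396 and 284 CPM, against 478 CPM. In the clamp and clamp loader group the hairpin 2 library was below the control for every gene, and Lig1 was the nearest to it, with 101 and 91.5 CPM against 104 CPM.

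Nucleotide supply genes were lower with both hairpins than with their own control hairpin, but not than in all 3 controls. Rrm2 had 896 and 413 CPM with Bloodlinc hairpins 1 and 2, against 1533 CPM with the control hairpin (log2 fold change −1.23, SE 0.60, unadjusted p = 0.0405, adjusted p = 1). Both lay above the empty vector library, at 292 CPM, and below the hnRNPU control hairpin library, at 1192 CPM. Rrm1 had 1338 and 767 CPM, against 1570 CPM, so Rrm2 was 55.0% and 49.5% of the reductase sum per kb with the hairpins, against 64.0% with the control. Both Rrm1 levels lay above the hnRNPU control hairpin library, at 751 CPM, and the empty vector library, at 458 CPM. In the other controls the Rrm2 share was 53.8% with the empty vector and 74.3% with the hnRNPU control hairpin, so hairpin 1 lay within the range of the 3 controls and hairpin 2 below it. Tyms had 86.3 and 67.0 CPM, against 127 CPM, with 116 CPM in the hnRNPU control hairpin library and 70.6 CPM in the empty vector library.

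Of the S phase entry genes, Ccne2 separated from its paralog Ccne1. Ccne2, a gene of cyclin E (chromosome 4, 11191351 to 11204779, plus strand, GRCm38), had 98.9 and 98.6 CPM with Bloodlinc hairpins 1 and 2, against 230 CPM with the control hairpin (log2 fold change −1.22, SE 0.53, unadjusted p = 0.0210, adjusted p = 0.989). The hairpin libraries nearly coincided, at a level above the empty vector library (79.4 CPM) and below the hnRNPU control hairpin library (148 CPM). Ccne1 had 183 and 136 CPM, against 208 CPM, and made up 73.5% and 67.4% of the cyclin E sum per kb with the hairpins, against 57.6% with the control. In the other 5 libraries the Ccne1 share was 46.1% to 57.1%. E2f2, the most abundant of the 3 E2F genes here, had 435 and 362 CPM, against 534 CPM, and E2f4, an E2F often found in repressive complexes, had 123 and 96.5 CPM, against 156 CPM. E2f1, an activating E2F, had 29.5 and 15.7 CPM, against 25.4 CPM.

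**Figure D4:**
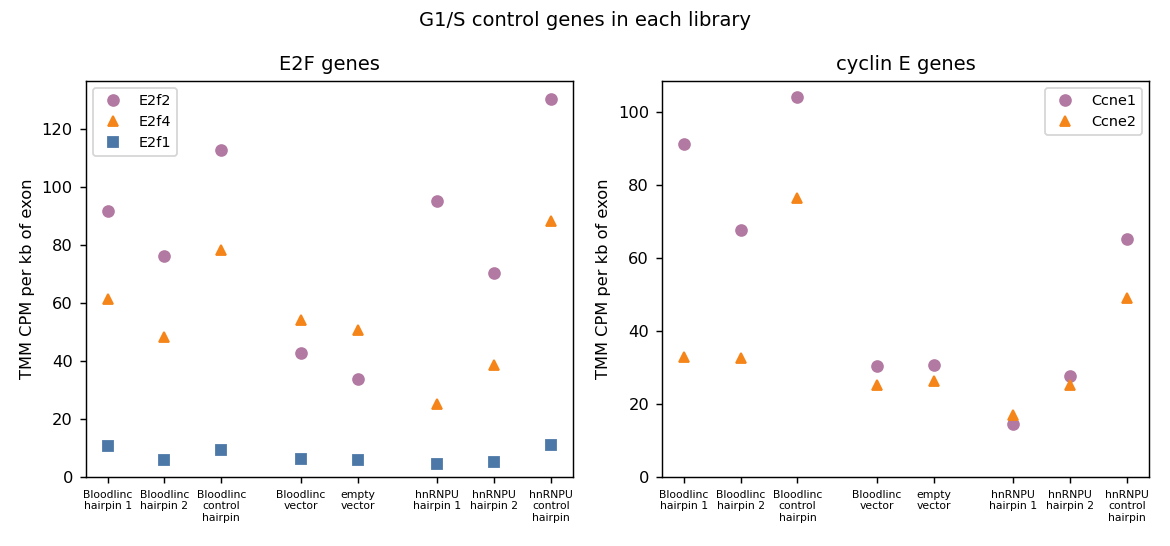
Level (CPM per kb of exon) of 3 E2F genes and 2 cyclin E genes in each library, 1 point per gene and library. Ccne2 lies apart from Ccne1 with the Bloodlinc hairpins, and E2f2 remains high with hnRNPU hairpin 1 at 95.04 while E2f4 stands at 25.2.

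In the hnRNPU knockdown every replication gene was lower with both hairpins than with their control, but no single gene passed the test. Both hairpins lay below their control for 38 of 38 genes, against 42.3% of all genes tested and 51.5% of those with at least 5 CPM. They lay below all 3 control libraries for 30 of 38, against 21.9% of all genes and 26.2% of those with at least 5 CPM, and the other 8 were Cdc6, Cdt1, Mcm4, Gins3, Pold1, Rfc2, Rrm2 and E2f2. The log2 fold changes ran from −1.72 for Orc1 to −0.65 for E2f2, with a median of −1.30 against −0.09 over all genes. Over protein-coding genes of at least 5 CPM the median was −0.25. Of the 38, 30 were below −1, against 17.4% of all genes below −1 and 53.4% below 0. edgeR's quasi-likelihood test called 135 genes (0.879%; 89 higher and 46 lower) and 0 of the 38, with a lowest adjusted p of 0.115 for Orc1, and DESeq2 also called 0 of the 38. At an unadjusted p under 0.05, 29 of the 38 were lower with edgeR (76.3%) and 20 with DESeq2, against 4.86% of all genes lower and 5.03% higher with edgeR.

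The call depended on which control library was used. Against the Bloodlinc control hairpin library, edgeR called 21 of the 38 lower (55.3%), but it called 15.2% of all genes there in either direction, 1307 higher and 1033 lower. The lowest of the 21 were Pcna at −2.74 (SE 0.59, adjusted p = 0.000138) and Fen1 at −2.63 (SE 0.56, adjusted p = 0.000112). With the 2 IDs that have no GENCODE entry left out of the fit, an alternative chosen after seeing the data, the median of the 38 was −1.32 and 0 were called. Without hnRNPU hairpin 1 the median of the 38 was −0.999 and 3 genes were lower at an unadjusted p under 0.05. Hairpin 1 stood below hairpin 2 for 37 of 38 genes, against 47.9% of all genes. The exception was E2f2. The median log2 differences of the 38 from the control were −1.66 and −0.99, against −0.28 and −0.12 over all genes. The summed level was 2808 and 3973 CPM with hairpins 1 and 2, against 8156 CPM with the control hairpin. Both hairpin libraries were lowest of the 8 in this sum. The erythroid markers summed to 106304 and 57156 CPM with hairpins 1 and 2, against 64438 CPM with the control hairpin, but 5 of the 11 were below 0 in log2 fold change (median 0.07). Epor, the erythropoietin receptor, had 19.5 and 44.5 CPM against 109 CPM (log2 fold change −1.76, SE 0.53, adjusted p = 0.0913), and Klf1, an erythroid transcription factor, had 137 and 165 CPM against 446 CPM (log2 fold change −1.57, SE 0.56, adjusted p = 0.222). The 6 early progenitor markers summed to 319 and 356 CPM with hairpins 1 and 2, against 196 CPM with the control hairpin, with 0 of 6 below 0 and a median of 0.82. The 9 granulocyte markers were higher in sum, with 7687 and 2963 CPM with hairpins 1 and 2, against 1466 CPM with the control hairpin, and 1 of the 9 was at 0 with each hairpin. Ltf, which encodes a protein of neutrophil granules, passed the test (1297 and 335 CPM against 125 CPM, adjusted p = 0.0136), but with any 1 hairpin library left out it did not (adjusted p 0.0530 to 1). The 9 macrophage markers summed to 1548 and 474 CPM against 237 CPM, with 4 and 2 of them at 0 with hairpins 1 and 2. Lyz2, which granulocytes also express, made up most of that sum, with 1472 and 443 CPM against 216 CPM (adjusted p = 0.0932). The part of these cells and of the low depth in the result was not tested.

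**Figure D5:**
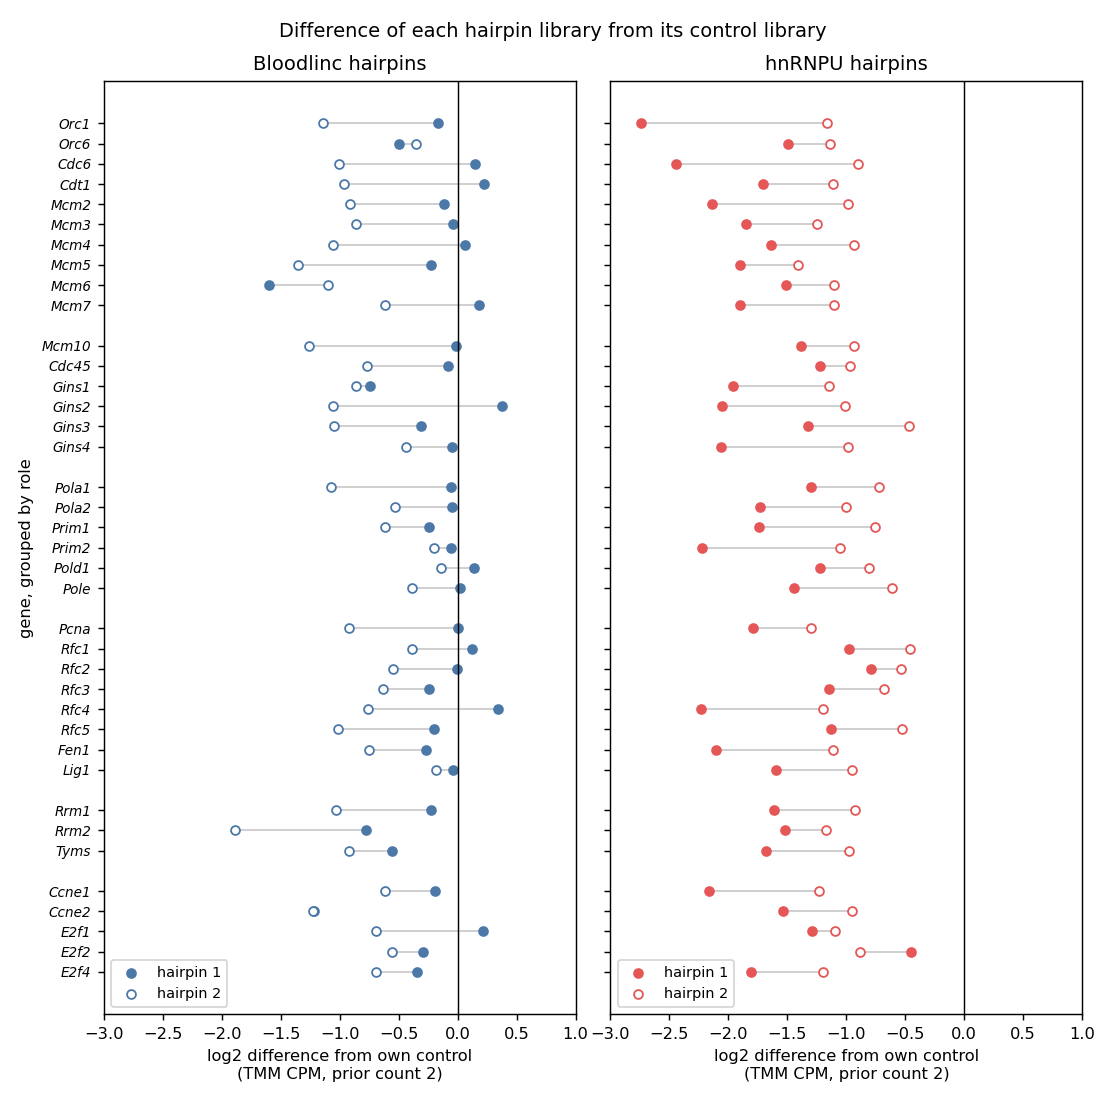
Log2 difference of each hairpin library from its own control library (CPM, prior count 2) for each of the 38 genes, with filled points for hairpin 1 and open points for hairpin 2. All hnRNPU points lie left of 0, while the Bloodlinc points of hairpin 1 gather near 0 with Mcm6 at −1.60 as the farthest.

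The licensing genes had the lowest median of the 6 role groups in the hnRNPU knockdown, at −1.45. Orc1 (chromosome 4, 108579423 to 108614833, plus strand, GRCm38) had 9.46 and 28.4 CPM with hnRNPU hairpins 1 and 2, against 63.6 CPM with their control, on 16 counts in the first library (log2 fold change −1.72, SE 0.54, adjusted p = 0.115). In the vector pair Orc1 had 36.8 CPM with the Bloodlinc vector, against 34.0 CPM with the empty vector, so both hnRNPU hairpins lay below all 3 controls. Mcm5 had 123 and 173 CPM, against 460 CPM (log2 fold change −1.63, SE 0.56, adjusted p = 0.191). Mcm7 had 116 and 201 CPM, against 434 CPM, and 258 CPM with the Bloodlinc vector, against 263 CPM with the empty vector. Cdc6, which loads the helicase with the origin recognition complex, had 29.0 and 84.7 CPM, against 158 CPM, and Cdt1, the other loading factor, had 23.6 and 35.8 CPM, against 77.5 CPM. For both of these genes hairpin 2 was above the empty vector library. Mcm2, Mcm3 and Mcm4 had log2 fold changes of −1.45, −1.52 and −1.24, and Orc6 of −1.30.

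Helicase activation genes were lower by a median of −1.28. Gins1 had 8.27 and 14.6 CPM with hnRNPU hairpins 1 and 2, against 32.4 CPM with their control (log2 fold change −1.48, SE 0.57, adjusted p = 0.295). In the vector pair Gins1 had 21.8 CPM with the Bloodlinc vector, against 23.4 CPM with the empty vector. Gins4 had 14.2 and 29.9 CPM with the hnRNPU hairpins, against 59.5 CPM, and 38.2 CPM with the Bloodlinc vector, against 38.5 CPM with the empty vector. Cdc45 and Mcm10 had log2 fold changes of −1.09 and −1.14. Gins3 lay nearest to 0 in the group, at −0.81 (SE 0.59), and Gins2 rested on 9 counts with hairpin 1.

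Among the polymerase genes the primase subunits and Pola2 were lowest against the control. Prim2 had 15.4 and 34.7 CPM with hnRNPU hairpins 1 and 2, against 72.2 CPM with their control (log2 fold change −1.51, SE 0.53, adjusted p = 0.208), and 49.6 CPM with the Bloodlinc vector, against 52.2 CPM with the empty vector. Prim1 had 27.8 and 55.2 CPM, against 93.1 CPM, and 69.3 CPM with the Bloodlinc vector, against 71.9 CPM with the empty vector. Both primase genes were below all 3 controls with both hnRNPU hairpins. Pola1 had 66.2 and 98.5 CPM, against 163 CPM, and stood at 129 CPM in each library of the vector pair. Pola2, Pold1 and Pole, the catalytic subunit of the leading strand polymerase, had log2 fold changes of −1.31, −1.0005 and −0.96.

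Pcna had 138 and 194 CPM with hnRNPU hairpins 1 and 2, against 478 CPM with their control (log2 fold change −1.53, SE 0.59, adjusted p = 0.296), and 281 CPM with the Bloodlinc vector, against 277 CPM with the empty vector. Rfc4 had 14.8 and 30.3 CPM, against 69.8 CPM (log2 fold change −1.61, SE 0.53, adjusted p = 0.162), and 46.5 CPM with the Bloodlinc vector, against 43.4 CPM with the empty vector. The 5 clamp loader genes did not keep one proportion. Rfc4 was 21.8% and 29.2% of their summed level per kb with the hnRNPU hairpins, against 39.2% with their control, but on 25 and 77 counts of Rfc4 in the hairpin libraries. In the other controls the Rfc4 share was 35.6% with the Bloodlinc control hairpin and 32.2% with the empty vector, which is near that of hairpin 2. Rfc5 had 24.2 and 36.6 CPM, against 53.0 CPM, and 52.2 CPM with the Bloodlinc vector, against 47.6 CPM with the empty vector. Rfc1, Rfc2 and Rfc3 had log2 fold changes of −0.69, −0.66 and −0.89, Fen1 of −1.52 and Lig1 of −1.24.

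Rrm2 had 416 and 527 CPM with hnRNPU hairpins 1 and 2, against 1192 CPM with their control (log2 fold change −1.34, SE 0.60, adjusted p = 0.416), and 318 CPM with the Bloodlinc vector, against 292 CPM with the empty vector. Both hairpin libraries were below 2 controls and above the empty vector library. Rrm1 and Tyms had log2 fold changes of −1.23 and −1.28. Rrm2 kept its place in the reductase sum per kb, with 75.5% and 70.9% with the hairpins, against 74.3% with the control.

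Ccne1 had 29.0 and 55.5 CPM with hnRNPU hairpins 1 and 2, against 130 CPM with their control (log2 fold change −1.62, SE 0.54, adjusted p = 0.166), and 60.9 CPM with the Bloodlinc vector, against 61.3 CPM with the empty vector. Ccne2 had 50.8 and 76.0 CPM, against 148 CPM (log2 fold change −1.21, SE 0.53, adjusted p = 0.404), and 75.9 CPM with the Bloodlinc vector, against 79.4 CPM with the empty vector. Both cyclin E genes were below all 3 controls with both hnRNPU hairpins. E2f2 (chromosome 4, 136172394 to 136196057, plus strand, GRCm38) had 450 and 334 CPM, against 617 CPM (log2 fold change −0.65, SE 0.58, adjusted p = 0.771). It was the gene of the 38 nearest to its control with hnRNPU hairpin 1, and both hairpin libraries lay above the empty vector library. E2f4 had 50.2 and 76.8 CPM, against 176 CPM (log2 fold change −1.47, SE 0.53, adjusted p = 0.238), and 108 CPM with the Bloodlinc vector, against 101 CPM with the empty vector. E2f1 had 12.4 and 14.2 CPM, against 30.4 CPM (log2 fold change −1.19, SE 0.58, adjusted p = 0.482), and 16.9 CPM with the Bloodlinc vector, against 15.6 CPM with the empty vector. E2f2 made up 76.2% and 61.7% of the summed level per kb of the 3 E2F genes with the hnRNPU hairpins, against 56.7% with their control. In the other controls the E2f2 share was 56.3% with the Bloodlinc control hairpin and 37.4% with the empty vector.

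The difference between the knockdown effects, taken as the hnRNPU effect minus the Bloodlinc effect in the same fit, was not called for any of the 38 genes. edgeR's quasi-likelihood test called 50 genes there (0.326%), 0 of the 38 and 0 of the 38 at an unadjusted p under 0.05 (2.82% of all genes higher and 1.29% lower), with a lowest unadjusted p of 0.0530, and DESeq2 called 0 of the 38. Of the 38 differences, 36 were below 0, against 61.8% of all genes, with a median of −0.92 against −0.30 over all genes. The lowest were −1.50 for Rfc4 (SE 0.78), −1.38 for Prim2 (SE 0.77) and −1.28 for Mcm7 (SE 0.84), and the ones above 0 were Mcm6 at 0.03 (SE 0.83) and Ccne2 at 0.01 (SE 0.78). With each knockdown set against the control of the other, 10 of the 38 were called, all below 0 (26.3%). Over all genes 19.7% were called in either direction there, 1773 above 0 and 1250 below. That contrast also takes in the gap between the control hairpin libraries, which are single libraries. Its calls thus cannot be read as a difference between the knockdown effects.

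The Bloodlinc vector gave 5.46 CPM of Bloodlinc RNA, against 1.26 CPM with the empty vector. The control hairpin libraries of the Bloodlinc and hnRNPU knockdowns held 4.46 and 4.35 CPM of it. With the Bloodlinc vector the replication genes stood close to the empty vector library. The summed level was 4467 CPM with the Bloodlinc vector, against 4327 CPM with the empty vector, and the median log2 difference was 0.03 over the 38 genes and 0.01 over all genes. There is 1 library in each arm and hence no test. None of the 38 differed by more than 1 log2 unit, against 1.75% of all genes. The 95% counting interval lay above 0 for 12 genes, below 0 for Cdc45 and across 0 for 25. Such intervals were not computed over all genes, so no direction particular to the 38 can be read from these counts. E2f2 was the farthest, with 203 CPM against 160 CPM (log2 difference 0.34, counting interval 0.30 to 0.39), and Cdt1 came next with 38.006 CPM against 31.5 CPM (log2 difference 0.27, counting interval 0.17 to 0.38). Among genes of at least 5 CPM, 2.92% were as far from 0 as E2f2 and 5.62% as far as Cdt1.

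Most other genes of the same pathways were lower too, and none passed edgeR's test in either knockdown. Of all genes tested, 53.4% were below 0 in the hnRNPU knockdown and 44.6% in the Bloodlinc knockdown. Of 15 further licensing and firing genes, 15 were below 0 in the hnRNPU knockdown (median −0.998) and 15 in the Bloodlinc knockdown (median −0.38). Orc2, a subunit of the origin recognition complex, had 43.7 and 61.8 CPM with the hnRNPU hairpins, against 157 CPM with their control. Of 25 further fork genes, 23 were below 0 in the hnRNPU knockdown (median −1.08) and 22 in the Bloodlinc knockdown (median −0.32), and Rpa2, a subunit of the single-strand binding protein, had 14.8 and 34.7 CPM against 85.7 CPM with hnRNPU hairpins and their control. Of 12 genes for chromatin assembly at the fork, 12 were below 0 in the hnRNPU knockdown (median −1.13) and 11 in the Bloodlinc knockdown (median −0.33). Slbp, which binds the stem-loop of histone mRNAs, had 473 and 438 CPM with the Bloodlinc hairpins, against 874 CPM with their control, and 95.8 and 124 CPM with the hnRNPU hairpins, against 326 CPM with theirs.

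Of 24 further nucleotide supply genes, 22 were below 0 in the hnRNPU knockdown (median −0.92) and 19 in the Bloodlinc knockdown (median −0.32). Samhd1, which breaks down deoxynucleotides, was an exception, with 142 and 38.6 CPM with the hnRNPU hairpins, against 32.3 CPM with their control (log2 fold change 1.48, SE 0.58, adjusted p = 0.319). Tk1, thymidine kinase, had 71.2 and 31.0 CPM with the Bloodlinc hairpins, against 94.8 CPM, and 14.2 and 40.6 CPM with the hnRNPU hairpins, against 76.5 CPM. Of 29 further S phase control genes measured, 23 were below 0 in the hnRNPU knockdown (median −0.68) and 22 in the Bloodlinc knockdown (median −0.26). Cdk6, a kinase of G1, was an exception in the Bloodlinc knockdown, with 71.7 and 37.7 CPM, against 17.9 CPM. All 15 genes of the G2 and M phases were below 0 in each knockdown, with medians of −1.21 (hnRNPU) and −0.58 (Bloodlinc). Their sum was highest in the Bloodlinc control hairpin library, at 9695 CPM. It was 7349 CPM with the hnRNPU control hairpin and 3132 CPM with the empty vector. Cdc20, an activator of the anaphase-promoting complex, had 28.4 and 53.6 CPM with the hnRNPU hairpins, against 144 CPM, and the proliferation marker Mki67 had 1837 and 1862 CPM with the Bloodlinc hairpins, against 4031 CPM.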

How the data were processed

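The submitters' processing notes name TopHat2 2.0.11 as aligner, mm9 as the build and HTSeq as counter; HTSeq's version, annotation and strand setting are not given in the sources used here. The authors deposited raw counts, 1 table per library, which were used without further change. GENCODE M21 (GRCm38) supplied symbols, exon lengths and positions, and RefSeq (GRCm38.p6) the promoters; neither was used to count reads.

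All 8 libraries, in 6 groups, entered 1 fit with edgeR 4.0.16 in R 4.3.3, with TMM scaling, filterByExpr and quasi-likelihood F-tests. Adjusted p-values are Benjamini-Hochberg over 15355 genes, with a threshold of 0.05. The hairpin pairs gave 2 residual degrees of freedom, and the control libraries were taken to have the spread of the hairpins. The prior degrees of freedom were 397, so the spread of each gene followed the trend over all genes. Each SE was obtained as the absolute log2 fold change over the root of its F statistic. Differences between 2 libraries are on the log2 scale with a prior count of 2, and 95% intervals of count ratios are exact conditional binomial ones. Reads without molecular identifiers are not independent molecules, so intervals cover counting error only. In the 8 libraries 3 counts came to 0.0869 to 1.15 CPM of gene counts.

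The members, lists and the naming rule were chosen with earlier results of these data known. Each member was to be named, with values in all 8 libraries for the most abundant gene of each role group, those with the largest change, and 5 S phase control genes. From the other lists up to 3 genes that passed, or up to 2 of at least 5 CPM, were eligible. Of 226 list entries, 1 (Cdkn2d) was not matched. Alternatives were DESeq2 1.42.0, its size factors, other filters, robust estimation, other controls, thinning and each hairpin library left out.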

Additional observations from a re-analysis of the deposited data

Results flagged for a closer look

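The share of uniquely placed counts that fell in no gene was 89.7% with hnRNPU hairpin 1 and 86.6% with hnRNPU hairpin 2, against 21.8% with their control hairpin, a signal in entries that the comparisons do not use. The replication genes of these libraries rest on gene counts alone, and the part of these outside counts in their lower levels was not tested.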

How the results depend on the processing

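Over all settings, none of the 38 genes passed in the Bloodlinc knockdown, and in the hnRNPU knockdown all 38 log2 fold changes stayed below 0, with medians from −1.78 to −0.999. The one setting in which members passed was the control library of the other knockdown, with 21 in the hnRNPU knockdown and 10 in the difference of the effects. The gap between the single control hairpin libraries enters both of these comparisons. Numbers of genes called over the whole table moved widely, and the cause was not tested. They were 5 (Bloodlinc) and 22 (difference) with DESeq2; 0, 8 (hnRNPU) and 5 with a minimum of 5 CPM in 2 libraries; 5, 65 and 23 with robust estimation; 0, 7 and 1 after thinning every library to 2612916 gene counts; 1043, 2340 and 3023 with the control of the other knockdown; 0, 7 and 444 with the 3 controls pooled; 0 in the Bloodlinc knockdown with its 3 libraries alone; 2, 26 and 8 with gene totals and no normalisation factors; 0, 38 and 9 with gene totals that leave out the 2 IDs with no GENCODE entry; and 0 in the Bloodlinc knockdown without both hnRNPU hairpin libraries. The last 3 settings, and the fit with TMM factors but without these 2 IDs, which moved none of these counts by more than 1.5 times, were chosen after seeing the data. Leaving out 1 hairpin library at a time gave 0 to 63 genes (Bloodlinc; 63 without Bloodlinc hairpin 1), 7 to 121 (hnRNPU; 7 without hnRNPU hairpin 1) and 6 to 37 (difference; 6 without hnRNPU hairpin 1). Ltf did not pass in 10 of the settings.

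In the Bloodlinc knockdown only part of the 38 genes were followed singly through the settings. They were the most abundant and most changed of each role group, and 5 S phase control genes. Of the 38 log2 fold changes, 22 were below 0 with the hnRNPU control, 19 with the 3 controls pooled and 25 with gene totals. There were 35 below 0 after thinning and 27 without Bloodlinc hairpin 2. Among the genes followed, 30 log2 fold changes turned to above 0 in this knockdown, and the cause was not tested. With the hnRNPU control these were Gins4 (0.65), Pola1 (0.68), Prim1 (0.59), Prim2 (0.17), Pcna (0.82), Rfc5 (0.13) and Ccne1 (0.29). With the 3 controls pooled they were Mcm7 (0.11), Gins4 (0.43), Pola1 (0.26), Prim1 (0.25), Prim2 (0.19), Pcna (0.45), Rfc4 (0.067) and Ccne1 (0.26). With gene totals they were Mcm7 (0.16), Gins4 (0.12), Prim2 (0.23), Rfc4 (0.21) and E2f1 (0.16), and the same 5 genes stood at 0.17, 0.12, 0.235, 0.21 and 0.16 with the 2 IDs left out of the totals. After thinning it was Prim2 (0.16). Leaving out 1 library gave −0.60 to 0.18 for Mcm7, −0.90 to 0.0066 for Pcna, −0.74 to 0.34 for Rfc4 and −0.67 to 0.22 for E2f1, each highest without Bloodlinc hairpin 2. Mcm6, Rrm2 and Ccne2 stayed below 0 in all settings run.

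The median of the 38 in the hnRNPU knockdown was −1.78 with gene totals, which moved the median of all genes to −0.63. The 2 IDs held 32.6% and 22.6% of the totals with hnRNPU hairpins 1 and 2, against 0.0166% with their control, and with these left out of the totals the medians were −1.35 (the 38) and −0.14 (all genes). In the vector pair the median of the 38 was 0.016 with DESeq2's size factors and 0.054 with gene totals. Summed levels with gene totals, these IDs included, were 8661 and 6368 CPM with the Bloodlinc hairpins, against 8795 CPM with their control, 5920 CPM with the Bloodlinc vector against 5641 CPM with the empty vector, and 1620 and 3860 CPM with the hnRNPU hairpins against 9193 CPM with their control. With DESeq2's size factors the Bloodlinc control held 10150 CPM, the Bloodlinc vector 4236 CPM, the empty vector 4145 CPM and the hnRNPU control 7441 CPM. No paired analysis was possible because each control is a single library and the hairpin numbers name different hairpins for different targets. With 9 to 762 counts per gene in the library of hnRNPU hairpin 1, depth limits the smallest differences that can be seen there.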
